A study of Mus musculus with 5 samples.

Results

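Dcstamp, Ocstamp, Oscar, Itgb3, Mst1r, Akap6, Slc9b2, Ckb and Src are 9 genes known from the fusion and working life of osteoclasts, the multinucleated cells that resorb bone. They were taken by symbol from the 32285 genes measured in a single-cell RNA sequencing study of mouse kidney, and all 9 were found. The study followed wild-type C57BL/6 mice, 8 to 10 weeks old, through injury by aristolochic acid I (AAI), a plant nephrotoxin that damages the proximal tubule. AAI was given into the peritoneum in doses of 3 mg/kg, with 3 days between doses, until week 2, and kidneys were taken at week 2 (acute kidney injury, AKI, 2 libraries) or at week 4, after 2 weeks without AAI (chronic kidney disease, CKD, 2 libraries). The control was 1 library of vehicle-treated kidney. The sample sizes in the study's methods match the number of libraries in each group, and the methods do not say whether a library held 1 mouse or several, so the spread between libraries may be technical.

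Osteoclasts arise from cells of the monocyte and macrophage lineage that fuse with each other, seal themselves to a surface through integrins and secrete acid and proteases. DC-STAMP (Dcstamp) and OC-STAMP (Ocstamp) are membrane proteins that the precursors need in order to fuse. OSCAR (Oscar) is a collagen receptor that signals through an ITAM adaptor, integrin beta 3 (Itgb3) pairs with the alpha v chain to form the osteoclast's main adhesion receptor, and RON (Mst1r) is a receptor tyrosine kinase of the MET family that binds macrophage-stimulating protein. Src is the kinase that organises the actin of the sealing zone, Ckb is the cytosolic brain-type creatine kinase that regenerates ATP, Slc9b2 is a sodium-proton antiporter, and Akap6 is a large scaffold for protein kinase A that is best known from the nuclear envelope of muscle cells. Macrophages of the kidney do not normally form osteoclasts.

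The genes were chosen with earlier results of these data known, from their pattern in macrophages in the CKD phase. Their values in macrophage-like cells are therefore given as a description, without a test. A test is given only for the other cell classes and for the other genes of the same pathways. Those other genes were also chosen with earlier results known, so their tests in macrophage-like cells give no independent support. Levels are UMIs (unique molecular identifiers, counted molecules) of the gene per 10000 UMIs of all genes, summed over the cells of 1 class in 1 library. The 3′ chemistry does not scale counts by length, so levels were compared between samples and classes and not between genes.

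The sequence upstream of 4 of the genes, which lie on different chromosomes, is shown as a description. The genes were chosen for their joint pattern in 1 cell class, so nothing about shared regulation is read from it. Each run covers bases 250 to 51 before the annotated start, on the gene's own strand (RefSeq, GRCm38.p6). The windows are chr7:3616208-3616407 (minus strand) for Oscar, chr3:135307450-135307649 (plus strand) for Slc9b2, chr9:107906639-107906838 (plus strand) for Mst1r and chr12:111672389-111672588 (minus strand) for Ckb, all of them upstream and outside the transcribed gene. Capitals mark matches, on either strand, to 4 short motifs of factors known from osteoclast differentiation, which are TGANTCA (AP-1), GAGGAA (PU.1), GGAAA (NFAT) and CANGTG (the E-box form read by MITF).
Oscar: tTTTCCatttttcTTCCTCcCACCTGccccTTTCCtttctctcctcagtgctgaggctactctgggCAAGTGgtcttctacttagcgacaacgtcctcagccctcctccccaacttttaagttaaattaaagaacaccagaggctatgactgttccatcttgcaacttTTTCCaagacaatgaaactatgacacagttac
Slc9b2: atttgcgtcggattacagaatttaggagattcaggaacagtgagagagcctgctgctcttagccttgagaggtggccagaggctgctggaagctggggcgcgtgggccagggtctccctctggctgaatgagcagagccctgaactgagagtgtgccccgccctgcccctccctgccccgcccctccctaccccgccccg
Mst1r: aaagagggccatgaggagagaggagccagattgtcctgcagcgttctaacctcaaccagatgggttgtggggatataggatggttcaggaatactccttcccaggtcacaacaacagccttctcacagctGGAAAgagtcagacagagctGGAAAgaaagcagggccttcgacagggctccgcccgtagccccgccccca
Ckb: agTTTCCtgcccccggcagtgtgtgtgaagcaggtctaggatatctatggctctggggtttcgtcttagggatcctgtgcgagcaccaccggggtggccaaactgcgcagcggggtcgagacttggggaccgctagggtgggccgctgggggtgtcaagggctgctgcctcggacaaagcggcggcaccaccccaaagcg

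The Oscar window held 1 PU.1 match 237 bases before the start, 3 NFAT matches at 249, 220 and 82 bases, and 2 E-boxes at 230 and 184 bases. The Slc9b2 window held no match. The Mst1r window held 2 NFAT matches at 120 and 100 bases, and the Ckb window held 1 at 248 bases. None of the 4 windows held the AP-1 motif. Over all 32851 windows of the same length, 5.57% held the AP-1 motif, 18.8% the PU.1 motif, 48.5% the NFAT motif and 33.6% the E-box, so a match to the last 3 is common and is a description only. A PU.1 match can overlap an NFAT match by up to 4 letters. The windows of Src and Akap6 lay inside the annotated gene and are not printed.

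After filtering, 53718 cells were kept, 8496 to 16330 per library, with a median of 2818.5 to 5518 UMIs per cell. Cells were clustered without the 9 genes and named from fixed marker lists. Macrophage-like cells numbered 895 in control, 702 and 986 in AKI 1 and AKI 2, and 1910 and 671 in CKD 1 and CKD 2. Their median depth was 3014, 8684.5, 8249.5, 2831 and 15930 UMIs in the same order. The summed level of the 9 macrophage markers was 399 and 417 in AKI and 74.3 and 79.6 in CKD, with every marker detected in all 5 libraries. The clusters that made up the class differed between the groups. In AKI most cells lay in cluster 5 (leading genes Ccl8, Ccl12, Ccl7 and C1qa) and cluster 22 (Slc15a3, Oasl1 and Ifit2 among them). In CKD 1 most lay in cluster 21 (Ctsk, Mmp9, Acp5 and Mt3) and cluster 25 (Acp5, Ctsk and Cd68). In CKD 2 clusters 21 and 25 together did not hold a majority. Cluster 25 held 791 cells, of which 740 were from CKD 1. In the CKD 1 cells of cluster 25 the summed level of the T cell markers was 7.80, against 0.532 in those of cluster 21. Control and CKD 2 shared 113 cell barcodes, and for 85 of these the CKD 2 cell was more than 20 times deeper. Of the 85 control cells, 30 were macrophage-like. Values with and without them are given where they matter.

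All 9 genes were higher in both CKD libraries than in both AKI libraries in macrophage-like cells. Of the 12330 genes that passed the filter on low counts in this class, 42.5% were also higher in both CKD libraries, and since the 9 were chosen on this contrast nothing is read from their count. The ratio of the CKD to the AKI mean ran from 3.10 for Src to 58.6 for Akap6. The ratios of Slc9b2, Akap6, Oscar, Mst1r and Itgb3 depend on which AKI library is used, since their AKI counts are small and lie mostly in AKI 2, so these ratios give no order among the genes.

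Both fusion genes had their highest levels in CKD. Dcstamp stood at 0.0111 in control, 0.131 and 0.0810 in AKI 1 and AKI 2, and 0.763 and 0.775 in CKD 1 and CKD 2. The counts behind these levels were 3, 82, 74, 901 and 987 UMIs. AKI lay above control and CKD above AKI, and the CKD libraries were nearly equal. The CKD mean of 0.769 ± 0.00853 (SD, n = 2) was 7.24 times the AKI mean of 0.106 ± 0.0355 (SD, n = 2).

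Ocstamp stood at 0.0368 in control, 0.0336 and 0.0427 in AKI, and 1.13 and 1.29 in CKD. With all control cells kept, the AKI libraries lay on either side of control. Of the 10 control UMIs of Ocstamp, 8 came from the 30 cells whose barcode was shared with CKD 2. Without these cells the control level was 0.00743, from 2 UMIs, and both AKI libraries lay above it, as for Dcstamp. The CKD mean was 31.7 times the AKI mean.

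Among the receptors, Oscar had 0 UMIs in control and in AKI 1 and 12 in AKI 2, and 313 and 215 in CKD 1 and CKD 2. As levels these were 0, 0, 0.0131, 0.265 and 0.169. For the counts of 0 the exact 95% interval reaches 0.0136 in control and 0.00590 in AKI 1, and these and all intervals below cover counting error only. Mst1r stood at 0.00737 in control, 0 and 0.0153 in AKI, and 0.314 and 0.251 in CKD. Without the 30 shared cells Mst1r had 0 UMIs in control. Itgb3 stood at 0.0626 and 0.0714 in CKD (74 and 91 UMIs), against 0.00480 and 0.0153 (3 and 14 UMIs) in AKI and 0 in control. The ratios of the CKD to the AKI mean were 33.0 for Oscar, 36.9 for Mst1r and 6.66 for Itgb3. Against AKI 2 alone they were 16.5, 18.4 and 4.38, against AKI 1 alone that of Itgb3 was 13.96 on 3 AKI UMIs, and AKI 1 gives no ratio for the others because it held 0 UMIs.

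The antiporter Slc9b2 had levels of 0.0295 in control, 0.00960 and 0.0657 in AKI, and 2.00 and 1.88 in CKD, from 8, 6, 60, 2364 and 2390 UMIs. Without the shared cells 1 of its 8 control UMIs was left. The ratio of the CKD to the AKI mean was 51.5, and it was 202 against AKI 1 alone and 29.5 against AKI 2 alone.

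The scaffold Akap6 had 1 UMI in control, 1 and 5 in AKI 1 and AKI 2, and 247 and 262 in CKD 1 and CKD 2. Its levels were 0.00368, 0.00160, 0.00547, 0.209 and 0.206. With the counts pooled by group, the CKD level was 53.2 times the AKI level, with an exact 95% interval of 24.3 to 146. The ratio of the CKD mean to AKI 2 alone was 37.9, and AKI 1 held 1 UMI.

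Ckb and Src were already present before CKD and had the smallest ratios. Ckb stood at 3.36 in control, 2.54 and 2.39 in AKI and 10.1 and 6.55 in CKD, so that the AKI libraries lay below control and the CKD libraries above it. The CKD libraries differed from each other more for Ckb than for Dcstamp. Src stood at 0.0258 in control, 0.154 and 0.153 in AKI and 0.398 and 0.553 in CKD, a stepwise order in which no groups overlapped. The ratios of the CKD to the AKI mean were 3.38 and 3.10.

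**Figure D1:**
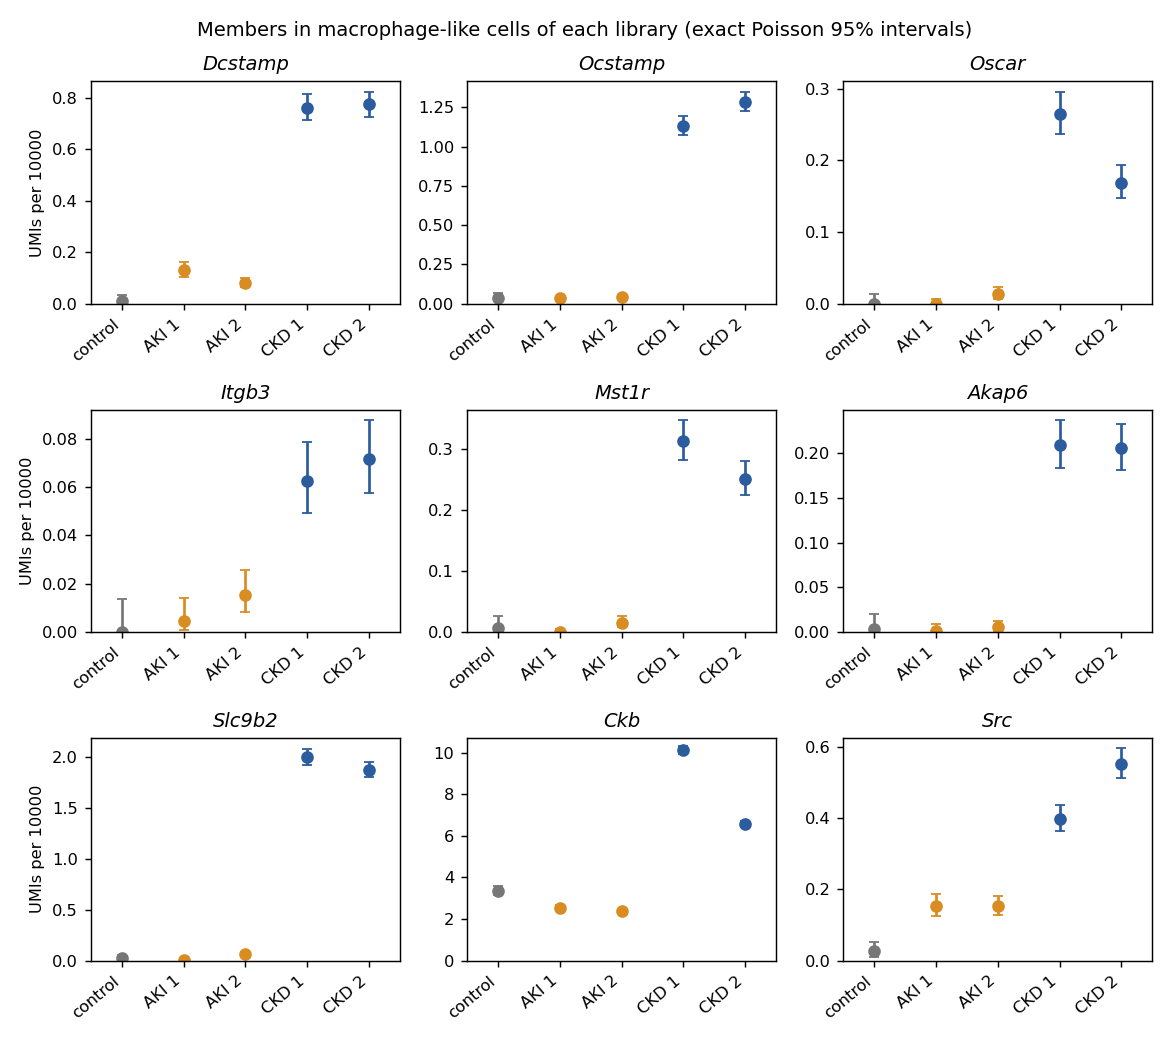
Level of each of the 9 genes in macrophage-like cells (UMIs per 10000, linear axis from 0, scaled separately for each gene), 1 point per library for control, AKI and CKD, with exact 95% intervals of the counts as bars. In every panel both CKD points lie above both AKI points, as for Slc9b2 at 2.00 and 1.88 against 0.00960 and 0.0657.

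Both CKD libraries lay above both AKI libraries for all 9 genes, so leaving out any single library could not change the direction. Leaving out the whole of cluster 25 also left all 9 genes higher in CKD. In AKI 2, much of the signal sat in very few cells. Cells were thinned to 1000 UMIs each and sorted by the UMIs of Ctsk, which encodes the collagen-degrading protease cathepsin K. In AKI 2 only 3 macrophage-like cells had 3 or more Ctsk UMIs, and all lay in cluster 21 with 21253 to 30096 UMIs in total. The barcode of 1 of the 3 was also found in 1 cell of another library. These 3 cells held 58 of the 60 Slc9b2 UMIs of the class in that library, all 12 Oscar UMIs, 13 of the 14 Mst1r UMIs and 4 of the 5 Akap6 UMIs. They held 8 of the 14 Itgb3 UMIs, 14 of the 39 Ocstamp UMIs and 16 of the 74 Dcstamp UMIs. Without them the AKI 2 level of Slc9b2 was 0.00221 and that of Oscar 0, while Dcstamp stood at 0.0640, Ckb at 2.18 and Src at 0.139. Without these cells, a choice made after seeing the data, the ratio of the CKD to the AKI mean was 328 for Slc9b2, 11.7 for Itgb3, 39.5 for Ocstamp, 7.87 for Dcstamp, 3.53 for Ckb and 3.25 for Src, and too few UMIs were left in AKI to give one for Oscar, Mst1r and Akap6. The level of Slc9b2 within the 3 cells was 7.25 and that of Ckb 25.9. In AKI 1 no cell had 3 or more Ctsk UMIs.

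In CKD the same split separated the cells. With 0 Ctsk UMIs per 1000 (1187 cells in CKD 1 and 478 in CKD 2), the level of Dcstamp was 0.0957 and 0.0533, close to its AKI range. With 1 to 2 (257 and 45 cells) it was 0.510 and 0.643, and with 3 or more (466 and 125 cells) it was 1.77 and 1.94. Ocstamp stood at 0.147 and 0.131 in the lowest group, 0.604 and 0.905 in between and 2.67 and 3.21 in the highest. Both fusion genes were thus higher at each step of Ctsk in both CKD libraries.

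For Slc9b2 the levels were 0.355 and 0.261 without Ctsk, 1.28 and 1.62 in between and 4.52 and 4.48 in the highest group. Akap6 had 0.0231 and 0.0216, then 0.108 and 0.150, then 0.500 and 0.510, so the CKD libraries lay close together at each step. Src had the flattest course, from 0.176 and 0.262 through 0.352 and 0.763 to 0.720 and 0.944.

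Oscar, Itgb3, Mst1r and Ckb were also highest in the group with 3 or more. Mst1r stood at 0.0181 and 0.00865, then 0.0863 and 0.165, then 0.798 and 0.657. Oscar stood at 0.0132 and 0.00576, then 0.0288 and 0.0598, then 0.690 and 0.456. Itgb3 stood at 0.00495 and 0.00721, then 0.00719 and 0.00748, then 0.161 and 0.191. Ckb stayed at 3.24 and 1.66, then 3.53 and 3.01, and then stood at 21.8 and 15.3. Between the first groups Ckb changed little in CKD 1 but not in CKD 2. Itgb3 had only 3 and 1 UMIs in these groups in CKD 1 and 5 and 1 in CKD 2, too few to show a course. The other genes were higher in the middle group in both libraries, for Oscar in CKD 1 on 8 and 4 UMIs. Differences between the genes in this course were not tested. Depth moved with the split in CKD 2, where the median was 11480 UMIs without Ctsk and 35316 in the highest group, and less so in CKD 1, at 2583 and 3512.5 UMIs. The part of depth in these levels was not tested.

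**Figure D2:**
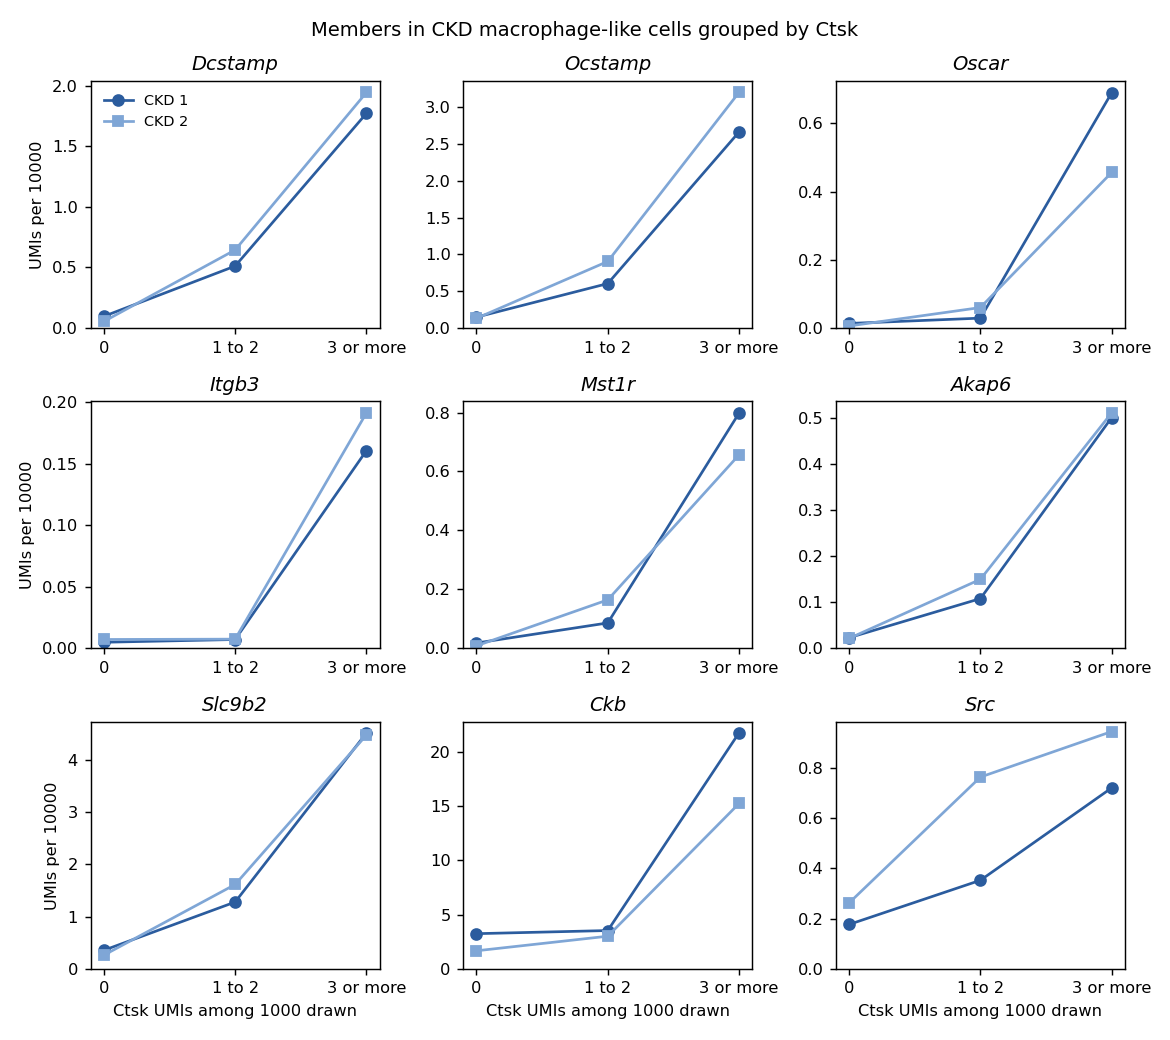
Level of the 9 genes (UMIs per 10000, linear axis from 0, scaled separately for each gene) in macrophage-like cells of CKD 1 and CKD 2, grouped by the Ctsk UMIs found in 1000 UMIs drawn from each cell (0, 1 to 2, 3 or more). Each gene is highest in the group with 3 or more, as for Ckb at 21.8 and 15.3, and Ckb changes little between the first groups in CKD 1. The middle point of Itgb3 rests on 1 UMI in each library.

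The difference between AKI and CKD was also present inside cluster 21, which held 52 and 98 cells in AKI and 521 and 309 in CKD. Dcstamp stood at 0.597 and 0.228 in the AKI cells of this cluster and at 1.15 and 1.01 in the CKD cells. Ocstamp stood at 0.116 and 0.152 in AKI and 1.73 and 1.69 in CKD, and Slc9b2 at 0.0385 and 0.269 in AKI and 3.09 and 2.46 in CKD. Ckb had 3.46 and 3.84 in AKI and 13.8 and 7.92 in CKD. In cluster 5, the cells led by complement and chemokine genes, the CKD levels stayed low, at 0.0202 and 0.0157 for Dcstamp and 0.0324 and 0.0275 for Slc9b2. The summed macrophage markers also differed within cluster 21, at 233 and 264 in AKI and 29.8 and 30.4 in CKD, and their part in these differences was not tested.

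Of the 13 cell classes with enough cells, macrophage-like cells had the highest CKD level for 7 of the 9 genes, all but Itgb3 and Ckb, with both libraries above both of the next class. Of all UMIs in kept cells, macrophage-like cells held 90.2% and 96.4% for Oscar in CKD 1 and CKD 2, 88.5% and 89.1% for Mst1r, 87.1% and 95.9% for Slc9b2, 84.3% and 95.1% for Ocstamp and 82.9% and 93.2% for Akap6. For Dcstamp the shares were 73.8% and 82.3%. Ckb at 53.8% and 59.0% and Src at 53.5% and 68.8% were spread more widely. Itgb3 was the exception, with 18.2% and 16.5% in macrophage-like cells and 49.3% and 69.6% in T cell-like cells.

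Dendritic cell-like cells, which share ancestry with macrophages, carried Dcstamp in every injured kidney. The level there was 0.0190 in control, 0.278 and 0.535 in AKI and 0.318 and 0.292 in CKD. In AKI dendritic cell-like cells stood above macrophage-like cells for Dcstamp and for Ocstamp (0.0776 and 0.0932). In CKD macrophage-like cells stood above them for both genes. Within dendritic cell-like cells, CKD did not differ from AKI beyond the spread between libraries for Dcstamp (log2 fold change -0.52, SE 0.27, adjusted p = 0.652) or for Ocstamp (log2 fold change -0.15, SE 0.31, adjusted p = 0.935). These are quasi-likelihood tests in edgeR, adjusted after Benjamini and Hochberg over all genes of the class. In this class 0.0921% of all 9774 genes tested were called. Ckb in CKD stood at 7.31 and 6.15 in dendritic cell-like cells, below macrophage-like cells of the same library (10.1 and 6.55), though the values of the classes overlapped across libraries.

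Itgb3 had another distribution from the remaining genes. In CKD its levels were 0.176 and 0.125 in B cell-like cells (5 UMIs in each library) and 0.141 and 0.101 in NK cell-like cells (9 and 14 UMIs). In T cell-like cells they were 0.0786 and 0.0887 (200 and 385 UMIs). All stood above macrophage-like cells, at 0.0626 and 0.0714. The B cell intervals, 0.0573 to 0.412 and 0.0406 to 0.292, include these macrophage-like values. Neutrophil-like cells had 0.188 in CKD 1, from 2 UMIs in 1 cell, and 0 in CKD 2. The B, NK and neutrophil values did not separate from each other. In T cell-like cells the difference between CKD and AKI did not pass the test (log2 fold change 0.49, SE 0.20, adjusted p = 0.205). Platelets are rich in Itgb3, and of 7 platelet genes Gp9, Gp1bb and Gp1ba were at 0 in macrophage-like cells of all 5 libraries. The summed level of the 7 platelet genes was 2.68 in control, 4.57 and 3.83 in AKI and 1.66 and 1.37 in CKD, with 3 to 5 of the 7 at 0, and the part of platelets in the Itgb3 values was not tested.

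Src outside macrophages was found mainly in tubule classes. In AKI its highest levels were in intercalated cell-like cells (0.285 and 0.320) and principal cell-like cells (0.280 and 0.285), above the 0.154 and 0.153 of macrophage-like cells. In CKD macrophage-like cells were highest, ahead of principal cell-like cells at 0.182 and 0.196. Src was lower in both CKD libraries than in both AKI libraries in intercalated cell-like, principal cell-like, proximal tubule-like and T cell-like cells, as were 29.7%, 21.1%, 25.8% and 26.3% of all genes tested there, and none of these 4 passed the test. Itgb3 was lower in the same way in endothelial cell-like cells, as were 23.8% of genes. Among tubule classes Ckb was highest in distal tubule-like cells (distal convoluted tubule and connecting tubule) at 3.91 and 3.11 in CKD, which overlapped with thick ascending limb-like cells at 3.18 and 1.65.

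Of the combinations of a gene with a class other than macrophage-like cells, 25 had enough counts to be tested between CKD and AKI, over 11 classes, and none had enough in neutrophil-like cells. Oscar, Mst1r and Akap6 passed the filter in 0 of these classes, Dcstamp and Slc9b2 in 1 each, Ocstamp in 2, Itgb3 in 3, Src in 7 and Ckb in 11. Only 1 of the 25 passed the adjusted threshold of 0.05, and 8 had an unadjusted p under 0.05. The shares of all genes called in the classes without a called member were 8.81% in T cell-like, 0.288% in B cell-like, 0.118% in NK cell-like, 0.1% in proximal tubule-like, 0.0921% in dendritic cell-like and 0.00908% in thick ascending limb-like cells, and 0% in the remaining 5. The 1 was Ckb in distal tubule-like cells, where 1.09% of the 8728 genes tested were called. Its level was 7.56 in control, 1.67 and 1.25 in AKI and 3.91 and 3.11 in CKD (CKD against AKI log2 fold change 1.35, SE 0.24, adjusted p = 0.0122 by edgeR). Both CKD libraries lay between AKI and control. The call did not hold without AKI 1 (adjusted p = 0.0956) or without AKI 2 (adjusted p = 0.939), in which the lone AKI library was assumed to vary like the CKD libraries.

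The next lowest adjusted p was that of Ocstamp in proximal tubule-like cells, at 0.0715 by edgeR. It had 0 UMIs in both AKI libraries and in control, and 44 and 8 UMIs in CKD 1 and CKD 2 (0.0409 and 0.0230). By DESeq2 its adjusted p was 0.0104. With 0 UMIs in AKI it passed the low-count filter through its CKD counts alone, so neither p-value is read as support. Proximal tubule-like cells of CKD 1 also held 1344 Ctsk UMIs, which is 3.27 Ocstamp UMIs for every 100 of Ctsk, against 3.26 in the macrophage-like cells of the same library. The same ratio was 3.43 in T cell-like, 3.73 in principal cell-like and 4.40 in thick ascending limb-like cells of CKD 1, and 13.7 in dendritic cell-like cells. In CKD 2 it was 3.53 in macrophage-like, 2.44 in T cell-like, 17.8 in proximal tubule-like and 63.2 in dendritic cell-like cells, but proximal tubule-like cells there held only 45 Ctsk UMIs. For Slc9b2 the ratio to 100 Ctsk UMIs in CKD 1 was 5.77 in macrophage-like, 5.28 in proximal tubule-like, 4.72 in thick ascending limb-like and 7.60 in T cell-like cells, and in CKD 2 it was 5.14, 11.1, 14.3 and 11.9 in the same order, the middle pair from 5 and 2 Slc9b2 UMIs. In AKI 2 T cell-like cells held 29 Slc9b2 UMIs beside 17 of Ctsk, and in AKI 1 they held 17 beside 2. For Dcstamp the ratio was 2.20 in macrophage-like and 66.8 in dendritic cell-like cells of CKD 1, and 2.12 and 192 in CKD 2. The part of free RNA in the counts outside macrophage-like cells was not tested.

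**Figure D3:**
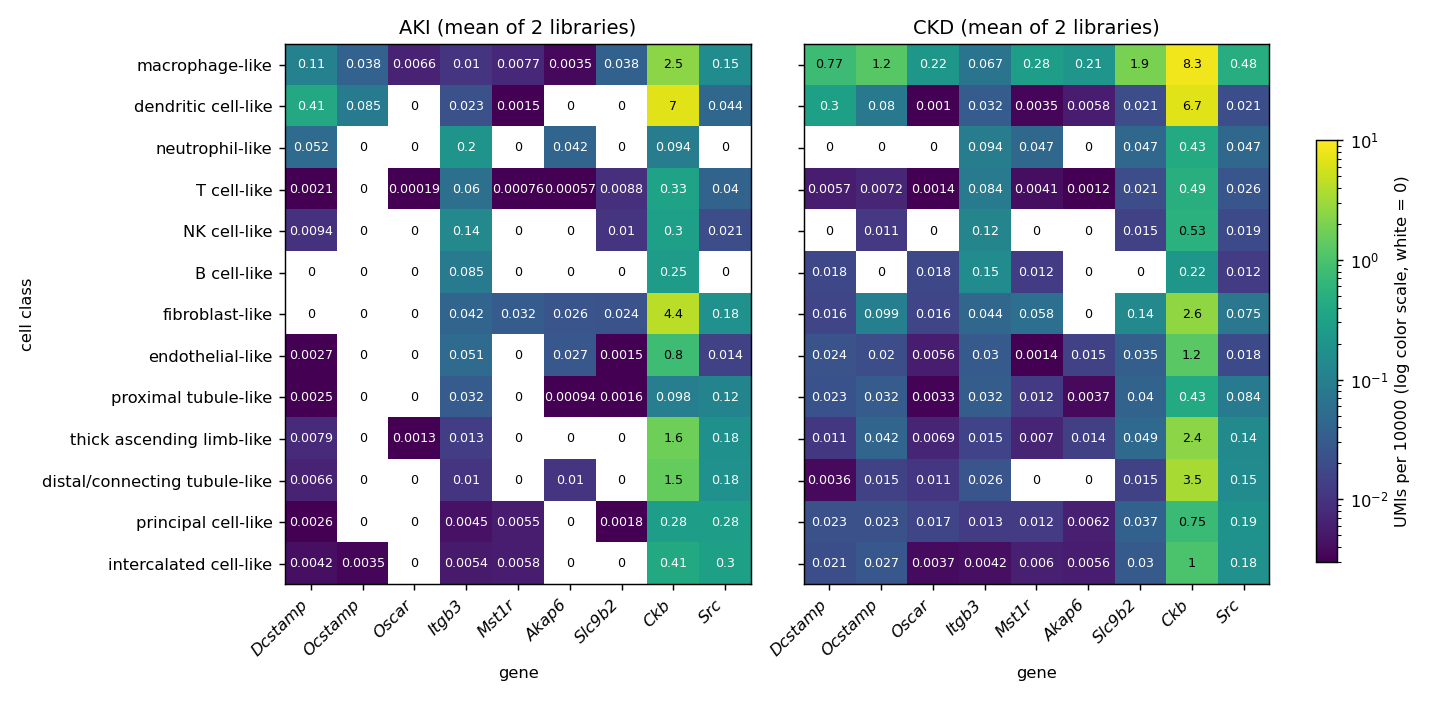
Level of the 9 genes (UMIs per 10000, colour on a log scale, white for 0) in each of 13 named cell classes, as the mean of 2 libraries for AKI (left) and CKD (right). In CKD the macrophage-like row holds the highest mean of every gene but Itgb3, Dcstamp is also seen in dendritic cell-like cells (0.41 in AKI and 0.30 in CKD), and Src and Ckb extend to tubule classes.

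Whether the genes occur in the same cells was examined after each cell was thinned to 1000 UMIs, for the 8 genes other than the widely detected Ckb. At least 2 of the 8 were found in 94 of 1910 macrophage-like cells of CKD 1, or 4.92% (exact 95% interval 3.995 to 5.99%), and in 39 of 648 of CKD 2, or 6.02% (4.31 to 8.14%). The counts were 1 of 947 cells in AKI 2, 0 of 643 in AKI 1 (upper limit 0.572%) and 0 of 789 in control (upper limit 0.466%). Thinning left out 0 and 23 cells in CKD, 59 and 39 in AKI and 106 in control. Without thinning the shares were 21.05% and 31.9% in CKD, 1.85% and 1.93% in AKI and 0.559% in control.

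Of the cells with Dcstamp, 15 of 63 in CKD 1 and 10 of 19 in CKD 2 also had Ocstamp, while 0 of 4 and 0 of 7 did in AKI. At 5000 UMIs 5 of 14 did in AKI 2 and 0 of 10 in AKI 1, and without thinning 8 of 28 in AKI 1 and 10 of 33 in AKI 2. CKD cells with at least 2 of the 8 genes had a median of 6845.5 and 34565 UMIs in the whole cell, against 2696 and 12773 in cells with none. Ctsk was found in 92.6% and 97.4% of the former and in 27.7% and 14.02% of the latter. For comparison, T cell-like cells of CKD 1 and CKD 2 were thinned alike (median depth 3540.5 and 5573.5 UMIs). They had Ocstamp in 0.195% and 0.0180% and Slc9b2 in 0.274% and 0.162%. In macrophage-like cells the shares were 5.13% and 7.41% for Ocstamp and 9.53% and 8.33% for Slc9b2. Itgb3 was found in 0.419% and 0.309% of macrophage-like cells and in 0.801% and 1.19% of T cell-like cells. T cell-like cells also held 80 Itgb3 UMIs in control, where macrophage-like cells held 0. They held Slc9b2 in AKI beside few Ctsk UMIs, as given above. They therefore give no level of free RNA for Itgb3 or Slc9b2, and the part of free RNA was not tested.

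At 5000 UMIs per cell, which 502 and 504 macrophage-like cells of CKD reached, at least 2 of the 8 were found in 34.1% and 26.0%. In AKI the shares were 0.431% and 1.26%, and in control 0 of 106 cells. At this depth 5 or more of the 8 genes were found together in 33 cells of CKD 1 and in 17 of CKD 2.

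To see whether the genes went together beyond the cluster they mark, pairs were counted in cluster 21 alone at 5000 UMIs (302 cells in CKD 1 and 301 in CKD 2) and set beside the number that the product of the 2 detection shares would give. Dcstamp and Ocstamp were found together in 67 cells of CKD 1 against a product of 41.3, and in 49 cells of CKD 2 against 25.1. Ocstamp and Slc9b2 were found together in 100 against 73.6 and in 78 against 44.9. Of the 28 pairs, 18 had a product of at least 5 cells in both libraries, and all 18 lay above the product in both. The ratio ran from 1.05 to 3.05, with a median of 1.45 in CKD 1 and 1.91 in CKD 2. Src was the least tied to the others. Its pair with Mst1r had 13 cells against 12.4 and 11 against 7.42, and its pair with Dcstamp 30 against 23.8 and 18 against 16.7. Cells of cluster 21 also differ in how much Ctsk they carry, as shown above, and the part of this gradient in the pairs was not tested.

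**Figure D4:**
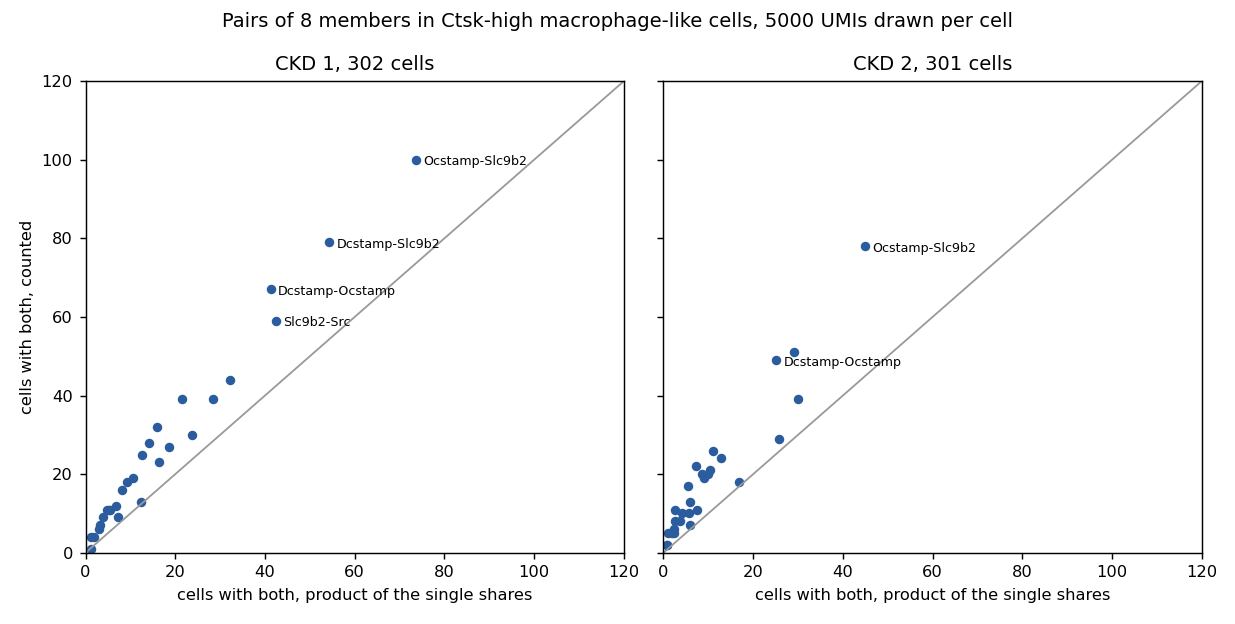
Cells of cluster 21 in which both genes of a pair were found, against the number given by the product of their shares, at 5000 UMIs per cell, for CKD 1 (left) and CKD 2 (right), 1 point per pair. The line marks equality, and the 18 pairs with a product of at least 5 cells in both libraries lie above it, Mst1r with Src nearest at 13 against 12.4.

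The partners of these genes were followed through 8 lists, chosen with earlier results of these data known, that hold 81 other genes, of which 74 passed the filter in macrophage-like cells. In this class 32% of all 12330 genes were called between CKD and AKI, 15.7% higher and 16.4% lower, with a median log2 fold change of 0.01. Of the 74, 22 were higher and 20 lower in CKD, with a median of 0.03.

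Of the 14 acid and protease effectors of resorption, 12 were higher and 0 lower, with a median of 1.80. The paper already reported Ctsk, Mmp9 and Acp5 as raised in CKD macrophages of these same data. Their p-values and the count of 12 are therefore a description. Ctsk rose from 0.0544 and 1.52 in AKI to 34.7 and 36.5 in CKD (log2 fold change 5.34, SE 1.26, adjusted p = 0.0247). Mmp9, the gelatinase, rose from 0.310 and 1.36 to 19.3 and 25.6 (log2 fold change 4.59, adjusted p = 0.00510). Acp5, the tartrate-resistant acid phosphatase used to stain osteoclasts, rose from 1.27 and 3.46 to 48.7 and 47.5 (log2 fold change 4.19, adjusted p = 0.00202). Calcr, the calcitonin receptor by which osteoclasts are defined, was picked out after its values were seen. It was called higher but stood at only 0.0195 and 0.0267 in CKD, from 0 and 0.00328 in AKI. Calcr passed the low-count filter through its CKD values alone, so its call, included in the 12, is no support.

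Of the 14 other genes of cell fusion, 3 were higher and 4 lower. Atp6v0d2, a proton pump subunit that is also needed for osteoclast fusion, rose from 0.0848 and 0.229 to 4.64 and 4.69 (log2 fold change 4.70, SE 0.39, adjusted p = 0.000996). Snx10, a sorting nexin of endosomes, rose from 0.503 and 0.631 to 1.78 and 1.83. Cd36, a scavenger receptor, fell from 0.270 and 0.286 to 0.0643 and 0.0557, the tetraspanin Cd81 fell from 6.96 and 6.83 to 2.17 and 1.53, and P2rx7, an ATP-gated channel, fell from 0.360 and 0.409 to 0.102 and 0.166. The tetraspanin Cd9 was called higher (log2 fold change 0.44, adjusted p = 0.0387) but was called lower under 3 other choices of cells and clusters.

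In the list of ITAM adaptors and kinases and in the Src family list, no gene was called higher. Of the 11 genes of the ITAM list, 0 were higher and 6 lower, with a median of -0.51. This list also holds receptors such as Trem2 and the phosphatases Inpp5d and Ptpn6. Both phosphatases were among the 6 called lower, while Tyrobp, Syk and Btk were not called. Fcer1g, the adaptor chain of Oscar, fell from 22.8 and 21.9 to 12.2 and 11.1 (log2 fold change -1.11, SE 0.10, adjusted p = 0.00110), Cd300ld fell from 0.600 and 0.468 to 0.119 and 0.0965, and the scaffold Gab2 fell from 0.282 and 0.260 to 0.0982 and 0.129. Of 7 measured kinases of the Src family with the inhibitor Csk, 0 were higher and 4 lower, with a median of -0.63. Lyn fell from 2.08 and 2.27 to 0.916 and 1.12 (log2 fold change -1.26, SE 0.15, adjusted p = 0.00250), and Fgr fell from 0.269 and 0.268 to 0.127 and 0.184. Src itself stood higher in CKD in the same cells.

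Among 18 integrin and podosome genes, 4 were higher and 4 lower. Itgav, the alpha v chain that pairs with Itgb3, rose from 0.837 and 0.744 to 1.28 and 1.47 (log2 fold change 0.63, SE 0.15, adjusted p = 0.0233), the small GTPase Rhou rose from 0.0192 and 0.0109 to 0.126 and 0.108, and the actin-severing Gsn rose from 1.08 and 0.971 to 1.91 and 1.95. Itgb5, another beta chain that pairs with alpha v, fell from 1.37 and 1.63 to 0.419 and 0.378 (log2 fold change -2.08, SE 0.12, adjusted p = 0.000604). The ubiquitin ligase Cbl fell from 0.581 and 0.624 to 0.251 and 0.332 and the exchange factor Vav1 from 0.496 and 0.478 to 0.267 and 0.254.

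Of 5 measured genes of creatine kinase and creatine supply, 2 were higher and 1 lower. The muscle-type kinase Ckm rose from 0.0144 and 0.00875 to 0.123 and 0.166 (log2 fold change 3.51, adjusted p = 0.00165), the creatine transporter Slc6a8 rose from 0.0816 and 0.113 to 0.514 and 0.503 (log2 fold change 2.21, adjusted p = 0.000798), and Gatm, an enzyme of creatine synthesis, fell from 1.42 and 1.497 to 0.785 and 0.501. Next to Mst1r, its relative Met rose from 0.0160 and 0.0197 in AKI to 0.109 and 0.0706 in CKD. The ligand of Met, Hgf, fell from 0.0560 and 0.0492 to 0.0127 and 0.0181. The control level of Met was 0.0810, between the CKD libraries, and that of Hgf was 0.0332, between AKI and CKD. Of the 3 measured collagens, which are ligands of Oscar, 0 were called in either direction in these cells.

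The genes whose levels followed each of the 9 most closely were found over 57 units of 1 class in 1 library with at least 50 cells, by Pearson's r of log2(UMIs per 10000 + 0.1). These units share libraries and many hold 0 UMIs, so r is a description. Pate4 was among the 3 most alike for 5 of the genes, which were Ocstamp, Oscar, Mst1r, Akap6 and Slc9b2, and 4833415N18Rik was for 4 of them. The closest were Pate4 for Oscar (r = 0.955) and Mst1r (r = 0.878), 4833415N18Rik for Akap6 (r = 0.949) and Slc9b2 (r = 0.939), and Fcna, a ficolin, for Ocstamp (r = 0.918). The metallothionein Mt3 was close to Slc9b2 (r = 0.933) and Ocstamp (r = 0.907), St18 to Oscar and Akap6, and Abcb4 to Mst1r.

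The remaining 4 had other companions. Dcstamp was most like the chemokine gene Ccl9 (r = 0.867), followed by Dpys and Cfp. Itgb3 was most like Adgre5 (r = 0.813), Stat4 and Gm9993, of which Stat4 encodes a transcription factor of lymphocytes. Ckb was most like Lpl, lipoprotein lipase (r = 0.777), Grk3 and Ccdc88a, and Src like Tmem141 (r = 0.848), Nudt22 and Tmem106c.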

How the data were processed

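Single-cell suspensions of kidney (collagenase IV and DNase I, 40 µm strainer) were sequenced with 10x Chromium 3′ v2 chemistry in 5 libraries. The deposited values are whole-number UMI counts per gene and barcode, which the authors made with Cell Ranger against GRCm39 per their methods and processing notes (version 7.2.0), whereas the file headers of the AKI and CKD matrices name Cell Ranger 5.0.0 and the control's feature list names mm10. The matrices still held barcodes past the study's mitochondrial limit, so the gene and mitochondrial limits were applied here, and its CellBender correction was not repeated. Whether counting used strand was not given in the sources used here, and Ckb overlaps Trmt61a and Oscar overlaps Ndufa3 on the other strand.

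Of 72896 barcodes, 60043 had at least 200 genes and at most 30% mitochondrial UMIs, and 6325 simulated-neighbour doublets were removed. Kept cells held 54426515 to 78130271 UMIs per library. Cells were clustered on 3000 variable genes, without the 9 genes, the list genes, platelet, mitochondrial and ribosomal genes (40 components, Harmony by library, 15 neighbours, Leiden at resolution 1.5; igraph 0.11.9, leidenalg 0.10.2). Clusters were named "-like" from at least 3 detected markers, or left unnamed (7031 cells). UMIs were summed by library and class, with exact Poisson intervals. CKD and AKI (2 against 2) were compared with edgeR 4.0.16 (quasi-likelihood, TMM, low-count filter, Benjamini-Hochberg over all genes of a class with 20 cells per library); DESeq2 1.42.0 was an alternative. On counts simulated for the macrophage-like comparison (12098 genes, 200 changed), 38.8% of changes of log2 1 and 95.8% of log2 2 were recovered, with 3 false calls. In the simulation all genes shared 1 dispersion (0.0374) and the changed genes came from those with more counts. Fewer genes were changed than were called in the data, so these rates may not carry over to it. The control, a single library, entered no test. For co-detection, cells were thinned without replacement to 1000, 2000 or 5000 UMIs.

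The 9 genes, the lists and the markers were chosen with earlier results of these data known. Named list genes were the at most 3 with the largest rise and the at most 3 with the largest fall per list among those with an adjusted p under 0.05 and groups that did not overlap, and 1 of these is not reported here. Other choices tried were DESeq2, RLE normalization, no low-count filter, a replicate block, leaving out each library, doublets kept, a 15% mitochondrial limit, no correction by library, resolution 1.0, other thinning depths and leaving out control cells of shared barcodes. RefSeq tables matched 9 genes by symbol and promoters for 6, with none for Dcstamp, Ocstamp and Itgb3.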

Additional observations from a re-analysis of the deposited data

Results flagged for a closer look

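Src was lower in both CKD libraries than in both AKI libraries in several classes, opposite to its course in macrophage-like cells, and the difference between the classes was not tested. The log2 ratio of the CKD to the AKI mean of Src was -0.727 in intercalated cell-like cells, -0.582 in principal cell-like cells, -0.496 in proximal tubule-like cells and -0.602 in T cell-like cells, against 1.63 in macrophage-like cells. In intercalated cell-like cells the levels were 0.285 and 0.320 in AKI and 0.146 and 0.220 in CKD, and in T cell-like cells 0.0380 and 0.0423 in AKI and 0.0259 and 0.0270 in CKD. Of all genes tested, 29.7%, 21.1%, 25.8% and 26.3% were lower in both CKD libraries in these 4 classes. By edgeR the adjusted p-values were 0.534, 0.965, 0.432 and 0.145.

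Itgb3 went the other way from macrophage-like cells in endothelial cell-like cells, which was not tested as a difference. Its levels there were 0.0734 in control, 0.0529 and 0.0495 in AKI and 0.0392 and 0.0212 in CKD, a log2 ratio of means of -0.762 (adjusted p = 0.921 by edgeR), in a class in which 23.8% of genes were lower in both CKD libraries.

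Dcstamp was also found in an unnamed cluster of 704 cells, outside the comparisons above, whose leading genes gave it no class. Its levels there were 0.223 and 0.210 in AKI and 0.216 and 0.325 in CKD, the lowest of these 4 being 0.210, against 0 in the 20 control cells. Ocstamp in the same cells stood at 0.0479 and 0.0396 in AKI and 0.0696 and 0.0378 in CKD, and Oscar at 0 in all 5 libraries.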

How the results depend on the processing

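All 9 genes stayed higher in both CKD libraries under every setting run, though leaving out 1 library could not have changed this. The number detected in control macrophage-like cells ranged from 6 to 8 around 7. Outside macrophage-like cells, 25 combinations were tested in the main fit, and the number tested under the other settings is not given here. The share of all genes called in those classes under the other settings is also not given. The counts of member calls that follow are therefore a description and are not compared with a background. The single call of a member outside macrophage-like cells (1 of 25) was the least stable count. It became 2 with DESeq2, 13 without the low-count filter, 4 with the replicate block (Ckb in distal tubule-like, intercalated cell-like and proximal tubule-like cells and Ocstamp in proximal tubule-like cells, adjusted p = 0.00352 by edgeR), 0 at a 15% mitochondrial limit and 0 without correction by library, and 0 to 19 when 1 library was left out (19 without CKD 2, where the lone CKD library was assumed to vary like the AKI libraries). The 42 list calls (22 higher, 20 lower) ranged from 26 to 50 (15 to 25 higher, 11 to 25 lower) with 1 library left out, lowest without AKI 1 or AKI 2. The 3951 calls over all genes (1935 higher, 2016 lower) ranged in the same way from 1428 to 5588 (543 to 2792 higher, 885 to 2808 lower), lowest without AKI 1. The mean share of CKD macrophage-like cells with at least 2 of 8 genes, 5.47%, became 12.6% at 2000 UMIs, 30.0% at 5000 UMIs (a depth chosen after seeing the data), 26.5% without thinning, 0.464% with at least 2 UMIs of a gene required, 3.53% at the 15% mitochondrial limit and 4.67% without correction by library, and 4.92 to 6.02% with 1 CKD library left out. Cd9 turned lower in CKD at the 15% limit (log2 fold change -0.41), without correction (-0.38) and at resolution 1.0 (-0.35). Leaving out the macrophage-like cluster that was nearly all CKD 1, also chosen after seeing the data, gave 48 list calls and a share of 6.11%. Over the single genes, 334 of 361 settings kept direction and side of the threshold, 20 lost the call, 4 gained it and 3 reversed. Replicate numbers were not shown to pair libraries (2 pairs, correlation of deviations 0.165). The cause of these changes was not tested. Members with under 20 UMIs in a group (Oscar, Mst1r, Itgb3 and Akap6 in AKI) are limited by depth.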
